A study of Mus musculus with 6 samples.

Results

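Blood vessel genes of the lung were followed in 10 members, chosen by gene symbol: Esm1, Vwf, Vegfa, Kdr, Flt1, Pecam1, Cdh5, Selp, Sele and Vcam1. They were read by 19 probe sets, of 45037 probe sets and 18193 genes on the array. RNA of whole lungs from adult BALB/c mice was hybridised to 6 Affymetrix arrays, 1 array for each RNA pool of 4 mice and 2 pools a genotype. The genotypes were IL4R KO + SMP8-IL4R, IL4R KO and WT. IL4R KO mice lacked the IL-4 receptor (IL4R -/-), and IL4R KO + SMP8-IL4R mice had the same deletion and carried a receptor transgene (+/-). Its promoter, SMP8, is described by the submitters as restricted to smooth muscle. WT mice were +/+ without the transgene. Every mouse, WT included, had received 2 to 3 µg of IL-13 into the trachea once a day for 7 days and was sampled 24 hours after the final dose, so the comparisons hold no lung without IL-13.

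Endothelial cells line blood vessels. They are held together by the junction proteins PECAM1 and VE-cadherin (Cdh5), and they grow and survive on VEGF-A, which lung epithelium makes in quantity and which acts through the receptors KDR and FLT1. Cytokine-activated endothelium puts P-selectin (Selp), E-selectin (Sele) and VCAM1 on its surface to catch leukocytes. P-selectin is stored with von Willebrand factor (Vwf), the clotting protein, in Weibel-Palade bodies, and platelets hold both of these proteins as well. Esm1 encodes endocan, a proteoglycan secreted by endothelium that VEGF-A is known to induce. In cultured human endothelium IL-4 and IL-13 are known inducers of VCAM1 and P-selectin.

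The values are log2 intensities after RMA (robust multi-array average), a method that subtracts background, puts the arrays on 1 distribution and combines the probes of each probe set. RMA gives no detection call, and levels of different probe sets are not set against each other. A difference of 1 is a 2-fold change. Differences are given as IL4R KO minus WT, IL4R KO + SMP8-IL4R minus IL4R KO, and IL4R KO + SMP8-IL4R minus WT, and any 2 of them share arrays. The 10 genes were chosen with earlier results of these data known, in which Esm1 and Vwf differed between IL4R KO and WT lungs. No p-value is therefore printed for any of the 10 in that comparison, nor for Esm1 and Vwf in any comparison. Where such a gene is counted as past the threshold of the fit, the count is a description and no test of the gene. The other gene lists were also chosen with earlier results of these data known. Their adjusted p-values and calls are likewise descriptions. The 95% intervals are for 1 gene at a time and are not adjusted over genes. RNA came from whole lung, so fewer endothelial cells and less RNA per cell cannot be told apart.

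Esm1 and the selectin genes are shown with the 250 bases before their annotated starts, because their RNA differed most between genotypes. The set of RefSeq windows (GRCm38.p6) used here held one for 6 of the 10 genes. Capitals mark the 1 match to the STAT-type motif TTCNNNGAA, searched on both strands. Esm1 lies on the plus strand of chromosome 13 (chr13:113209409-113209658), and Selp (chr1:164115014-164115263) and Sele (chr1:164047984-164048233) on the plus strand of chromosome 1.
Esm1: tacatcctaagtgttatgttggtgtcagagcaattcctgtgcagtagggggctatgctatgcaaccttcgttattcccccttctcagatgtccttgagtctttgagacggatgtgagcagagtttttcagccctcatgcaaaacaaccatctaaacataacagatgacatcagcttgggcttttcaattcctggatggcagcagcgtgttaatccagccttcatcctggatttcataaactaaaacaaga
Selp: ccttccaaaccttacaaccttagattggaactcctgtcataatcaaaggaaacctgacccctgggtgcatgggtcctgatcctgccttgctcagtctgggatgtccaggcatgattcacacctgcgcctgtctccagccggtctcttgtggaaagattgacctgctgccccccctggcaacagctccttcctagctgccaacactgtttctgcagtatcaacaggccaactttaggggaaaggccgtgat
Sele: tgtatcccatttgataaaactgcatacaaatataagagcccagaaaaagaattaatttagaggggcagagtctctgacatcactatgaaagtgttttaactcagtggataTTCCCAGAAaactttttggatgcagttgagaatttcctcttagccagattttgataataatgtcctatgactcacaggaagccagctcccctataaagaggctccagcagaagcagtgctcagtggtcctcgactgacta
The Sele match, TTCCCAGAA, starts 140 bases before the gene start, and 7.02% of all 32851 promoter windows of this length hold such a match. The STAT6-type palindrome (5.85% of all windows) and the NF-kB-type motif (1.41%), searched on both strands, had no match in the 7 windows of the 6 genes, which says only that these letters are not there. The hypoxia-type core ACGTG (16.6% of all windows, both strands) matched 1 window, that of the second Vegfa entry, 211 bases before its start. Vegfa lies on the minus strand, so that window (chr17:46025164-46025413) is downstream of the first entry's start and window (chr17:46032378-46032627). These matches describe letters in a window and were not tested as binding sites.

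The arrays had medians between 7.08 and 7.11. Markers of vessel lining were plainly present: all 23 genes of a pan-endothelial list were bright enough to be tested, and the list's mean log2 value was 11.52 and 11.55 in IL4R KO + SMP8-IL4R, 11.43 and 11.55 in IL4R KO, and 11.43 and 11.43 in WT. Some pools stood apart from their partner. Albumin (Alb), a liver transcript, stood at 12.26 in the first IL4R KO pool and 11.81 in the second WT pool, against 5.68 to 5.93 on the other 4 arrays, and Y-linked Eif2s3y was 4.27 in IL4R KO pool 2, against at least 8.49 elsewhere. X-linked Xist was 7.93 in IL4R KO pool 1, against 10.08 to 11.40 elsewhere, so both IL4R KO pools stood apart in sex-linked transcripts. The probe sets of the targeted gene, Il4ra, may lie outside the deleted part, so they do not check the labels. Its brightest probe set gave 9.98 and 9.84 in IL4R KO + SMP8-IL4R, 9.35 and 9.55 in IL4R KO, and 9.64 and 9.81 in WT, and its other probe sets ranged from 8.80 to 9.29 and from 6.73 to 7.14 over the 6 arrays.

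Esm1 was 4.88-fold higher in IL4R KO + SMP8-IL4R lungs and 3.97-fold higher in IL4R KO lungs than in WT lungs, and Selp and Vwf were lower than in WT in both genotypes. Sele, which was dim, lay the same way as Selp. Vegfa, its receptors Kdr and Flt1, the junction genes Pecam1 and Cdh5, and Vcam1 differed by at most 0.34 on the log2 scale by their brightest probe sets. None of the 9 genes tested passed between IL4R KO + SMP8-IL4R and IL4R KO lungs, where 0.101% of all genes did.

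The ligand Vegfa was read by 2 probe sets that did not order the genotypes alike. The brighter gave 12.21 and 12.15 in IL4R KO + SMP8-IL4R, 12.06 and 12.07 in IL4R KO, and 12.04 and 11.96 in WT. No 2 genotypes overlapped, over a narrow range with transgenic lungs highest. The dimmer gave 10.79 and 10.83 in IL4R KO + SMP8-IL4R, 10.97 and 11.14 in IL4R KO, and 10.72 and 10.81 in WT. Here both IL4R KO pools were highest. Transgenic minus IL4R KO was 0.12 by the brighter (adjusted p = 0.483, 95% interval -0.033 to 0.27) and -0.24 by the dimmer (adjusted p = 0.395 over all probe sets). Transgenic minus WT was 0.18 (adjusted p = 0.222, 95% interval 0.026 to 0.33) and 0.049 (adjusted p = 0.832 over all probe sets), and IL4R KO minus WT was 0.060 and 0.29.

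The receptor genes lay slightly above WT on the knockout background. Kdr, the main signalling receptor for VEGF-A, gave 11.95 and 12.02 in IL4R KO + SMP8-IL4R, 11.86 and 12.30 in IL4R KO, and 11.81 and 11.67 in WT. Both genotypes with the deletion lay above WT and overlapped each other, and the IL4R KO pools differed from each other by more than either differed from the transgenic mean. IL4R KO minus WT was 0.34, but it was 0.12 when IL4R KO pool 2 was left out and 0.56 when IL4R KO pool 1 was. Transgenic minus IL4R KO was -0.10 (adjusted p = 0.793, 95% interval -0.46 to 0.26) and transgenic minus WT 0.24 (adjusted p = 0.453, 95% interval -0.12 to 0.60). All 4 probe sets of Flt1, the high-affinity receptor that limits VEGF-A signalling, were higher in IL4R KO than in WT lungs, by 0.22 to 0.35. For the brightest the difference of 0.24 was 0.12 without WT pool 2, 0.10 without both arrays that held liver transcripts and 0.37 without WT pool 1. It gave 11.55 and 11.72 in IL4R KO + SMP8-IL4R, 11.71 and 11.68 in IL4R KO, and 11.58 and 11.33 in WT. The IL4R KO pools lay above WT, while the transgenic pools overlapped both other genotypes. For this probe set, transgenic minus IL4R KO was -0.064 (adjusted p = 0.82, 95% interval -0.32 to 0.20) and transgenic minus WT 0.18 (adjusted p = 0.434, 95% interval -0.082 to 0.44). Transgenic minus WT was 0.052 without WT pool 2 or both arrays that held liver transcripts, 0.30 without WT pool 1 and 0.091 without IL4R KO + SMP8-IL4R pool 2.

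Esm1, the gene of endocan, read by 1 probe set, had log2 values of 9.11 and 8.78 in IL4R KO + SMP8-IL4R, 8.39 and 8.90 in IL4R KO, and 6.52 and 6.80 in WT. All 4 IL4R -/- pools lay above both WT pools, while the 2 genotypes with the deletion overlapped. Transgenic lungs averaged 8.95 ± 0.23, IL4R KO lungs 8.65 ± 0.36 and WT lungs 6.66 ± 0.20 (SD, n = 2 each). Esm1 was thus 3.97-fold higher in IL4R KO than in WT lungs (1.99 on the log2 scale, SE 0.20) and 4.88-fold higher in IL4R KO + SMP8-IL4R than in WT lungs (2.29, SE 0.20). Between the transgenic and IL4R KO lungs the difference was 0.30 (SE 0.20), with a 95% interval from -0.20 to 0.80. Single pools set its size: it was 0.046 without IL4R KO pool 1 (and without both arrays that held liver transcripts), 0.55 without IL4R KO pool 2, 0.14 without IL4R KO + SMP8-IL4R pool 1 and 0.47 without IL4R KO + SMP8-IL4R pool 2. Both WT values lay below 7.10, the median of all values, so Esm1 met the filter on dim genes through the other 2 genotypes.

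Vwf lay the other way. Its probe set gave 12.37 and 12.27 in IL4R KO + SMP8-IL4R, 12.15 and 12.34 in IL4R KO, and 12.98 and 12.92 in WT. Both WT pools were above the 4 others, which again overlapped between genotypes. Vwf was 1.63-fold lower in IL4R KO than in WT lungs (-0.70, SE 0.09) and 1.55-fold lower in transgenic than in WT lungs (-0.63, SE 0.09), and the transgenic and IL4R KO means were 0.075 apart (SE 0.09, 95% interval -0.14 to 0.29).

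The junction genes lay close together in all genotypes. Pecam1 gave 12.16 and 12.18 in IL4R KO + SMP8-IL4R, 12.22 and 12.30 in IL4R KO, and 12.32 and 12.26 in WT. The transgenic pools lay just below the 4 others, and IL4R KO and WT overlapped. Its differences were -0.032 for IL4R KO minus WT, -0.093 for transgenic minus IL4R KO (adjusted p = 0.569, 95% interval -0.25 to 0.060) and -0.12 for transgenic minus WT (adjusted p = 0.362, 95% interval -0.28 to 0.028). The brighter Cdh5 probe set gave 11.54 and 11.56 in IL4R KO + SMP8-IL4R, 11.50 and 11.55 in IL4R KO, and 11.43 and 11.36 in WT. WT was lowest, and the genotypes with the deletion overlapped. By this probe set IL4R KO minus WT was 0.13, transgenic minus IL4R KO 0.028 (adjusted p = 0.873, 95% interval -0.12 to 0.18) and transgenic minus WT 0.16 (adjusted p = 0.26, 95% interval 0.0079 to 0.31). The dimmer Cdh5 probe set gave 0.15, -0.24 and -0.089.

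**Figure D1:**
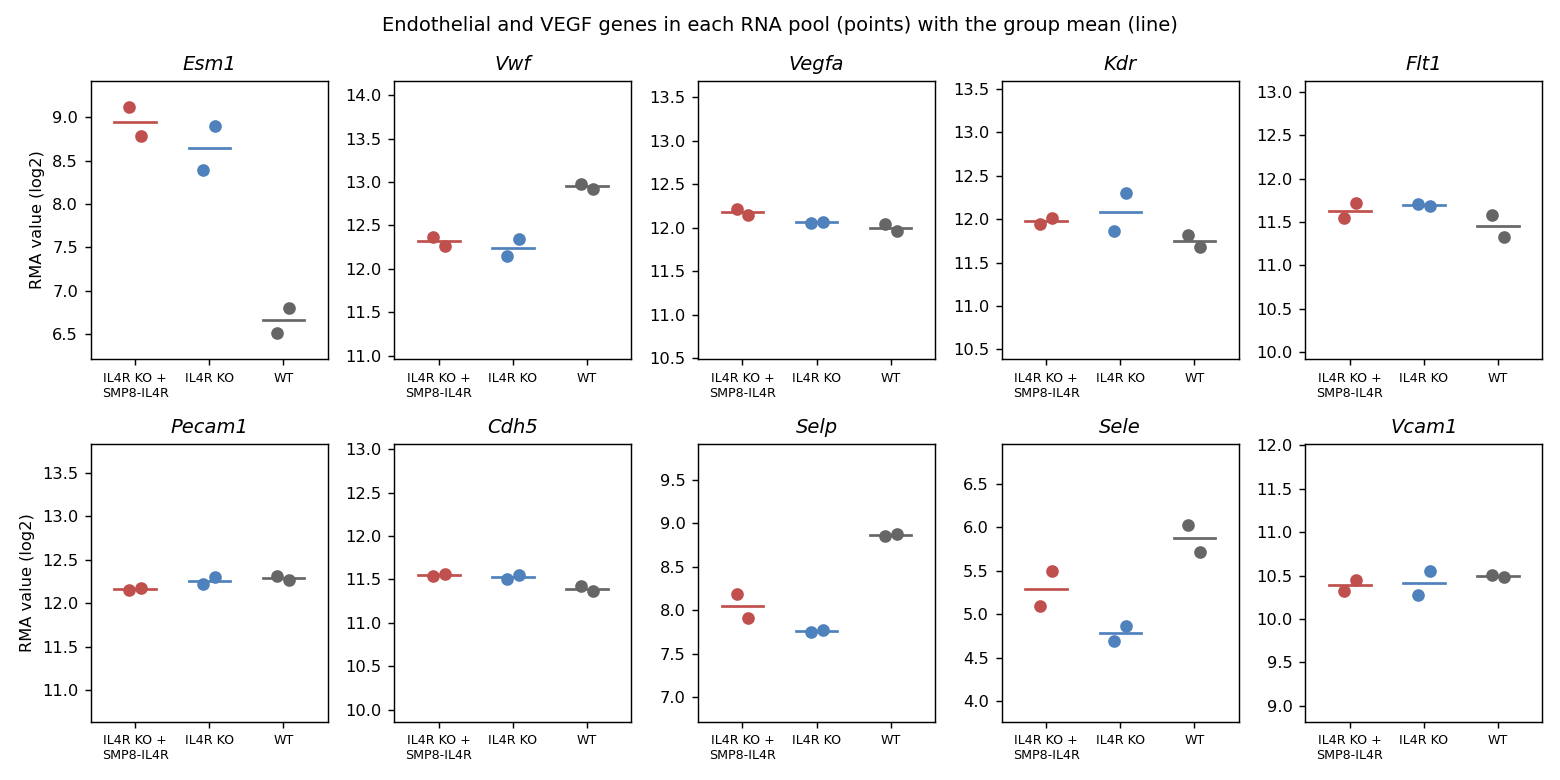
RMA log2 values of the brightest probe set of each gene in the 6 RNA pools, by genotype, with points for pools and lines for group means; every panel spans the same number of log2 units. Esm1 is high in the 4 knockout-background pools (8.39 to 9.11) and low in WT (6.52 and 6.80), Vwf, Selp and Sele are highest in WT, and the other 6 genes lie close together.

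The selectins, which slow leukocytes on the vessel wall, lay lower in both genotypes with the deletion. The brightest of the 3 Selp probe sets gave 8.19 and 7.92 in IL4R KO + SMP8-IL4R, 7.75 and 7.77 in IL4R KO, and 8.85 and 8.88 in WT. No 2 genotypes overlapped, with WT highest and IL4R KO lowest. Selp was 2.15-fold lower in IL4R KO than in WT lungs (-1.10, SE 0.10). The other Selp probe sets gave -1.09 and -1.21 in that comparison, so all 3 lay at similar distances. Against WT, transgenic lungs had 0.81 less (SE 0.10, limma adjusted p = 0.0153 over all genes), which passed, and the other probe sets gave -1.02 and -0.98. That comparison shares its WT arrays with IL4R KO minus WT, which was in view when the genes were chosen. The call is thus a description of Selp and no independent test. The difference was -0.67 without IL4R KO + SMP8-IL4R pool 2, -0.83 without WT pool 1 and -0.80 without WT pool 2. Without both arrays that held liver transcripts it was -0.80. The call did not hold in these fits, which left a genotype with 1 array and had fewer residual degrees of freedom. Without either WT pool the difference itself hardly moved. With the median of the probe sets the difference was -1.02 (limma adjusted p = 0.0966).
Selp was 0.29 higher in transgenic than in IL4R KO lungs (SE 0.10, adjusted p = 0.336, 95% interval 0.051 to 0.53), which did not pass; it was 0.16 without IL4R KO + SMP8-IL4R pool 1, and its other probe sets gave 0.069 and 0.23.

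Sele, the E-selectin gene, was dim. Its probe set gave 5.09 and 5.50 in IL4R KO + SMP8-IL4R, 4.70 and 4.86 in IL4R KO, and 6.03 and 5.71 in WT. The order was that of Selp, and no 2 genotypes overlapped. All 6 values lay below the median of all values, so Sele was left out of the test. The differences were -1.09 for IL4R KO minus WT, 0.51 for transgenic minus IL4R KO and -0.58 for transgenic minus WT. In a limma fit with no filter on dim genes, the last 2 did not pass (adjusted p = 0.369 and adjusted p = 0.179), where 0.0275% and 1.83% of all genes did.

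Vcam1, the third leukocyte adhesion gene, lay close together in all genotypes. Its brightest probe set gave 10.33 and 10.45 in IL4R KO + SMP8-IL4R, 10.28 and 10.55 in IL4R KO, and 10.51 and 10.49 in WT, with IL4R KO pools on either side of WT. Its differences were -0.080 for IL4R KO minus WT, -0.032 for transgenic minus IL4R KO (adjusted p = 0.918, 95% interval -0.29 to 0.22) and -0.11 for transgenic minus WT (adjusted p = 0.62, 95% interval -0.37 to 0.14). The other 2 probe sets ranged from -0.23 to 0.063 over the 3 comparisons. By the dimmest, both WT pools (8.94 and 9.03) lay above all other pools (8.65 to 8.85), and IL4R KO minus WT was -0.23.

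**Figure D2:**
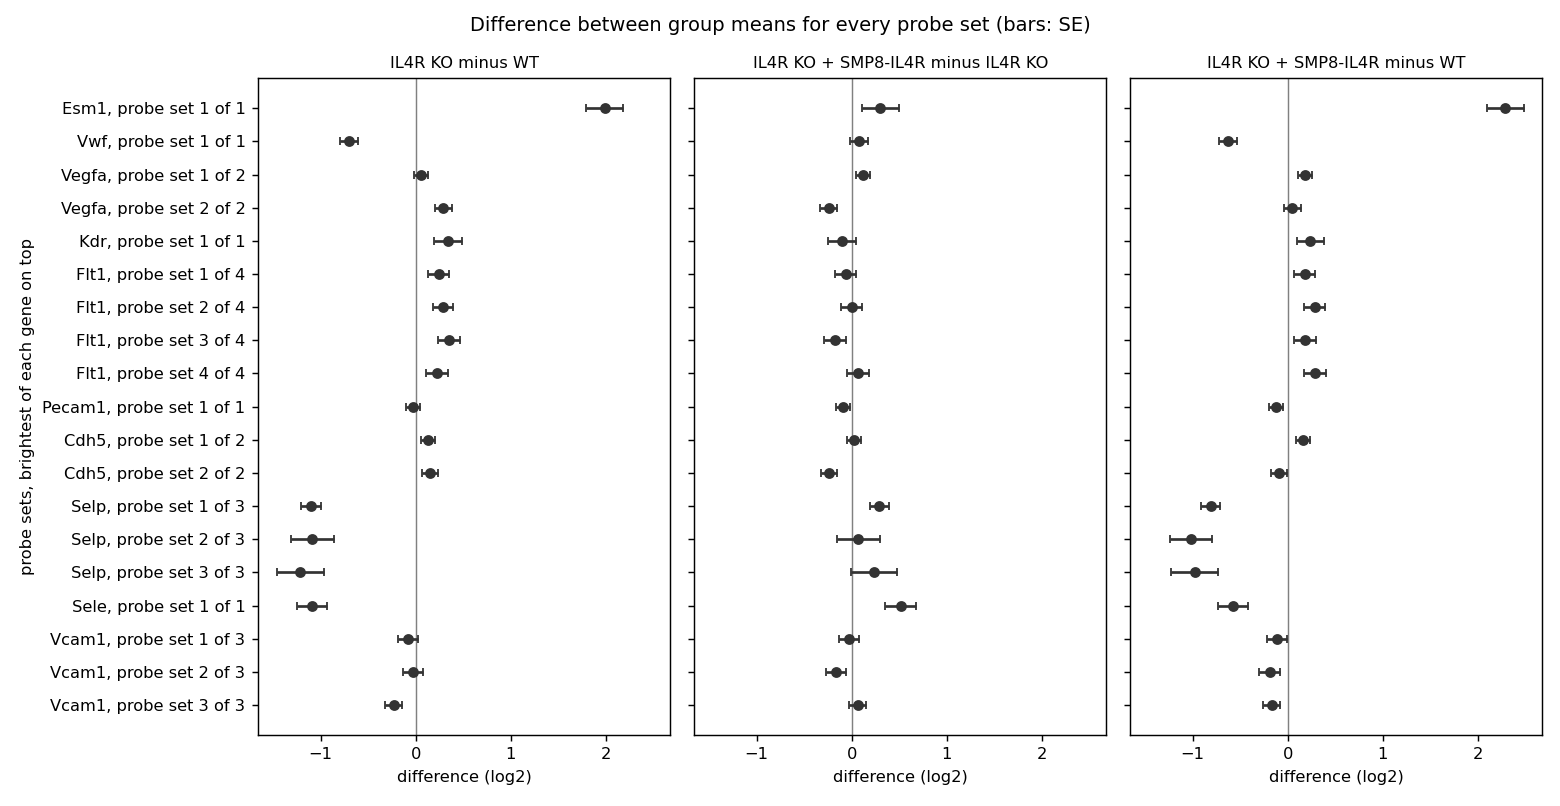
Differences between group means on the log2 scale for all 19 probe sets in the 3 comparisons, with bars for the SE of a fit over all probe sets. The 3 Selp probe sets lie together near -1.1 in IL4R KO minus WT (-1.09 to -1.21), the 4 Flt1 probe sets lie between 0.22 and 0.35, and the Vegfa probe sets part in transgenic minus IL4R KO (0.12 and -0.24).

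Of the 10 genes, 9 were bright enough to be tested. In IL4R KO minus WT, 1 rose (Esm1) and 2 fell (Selp and Vwf) at an adjusted p under 0.05, where 4.7% of all 11861 tested genes passed (1.92% upward and 2.77% downward). Since this comparison was in view when the genes were chosen, nothing is read from that count, nor from the 4 of 10 counted in a fit with no filter on dim genes, where 2.8% of all genes passed. In transgenic minus IL4R KO 0 of the 9 passed by limma, and 1 (Selp) had an unadjusted p under 0.05, where 0.101% and 12.4% of all genes did. In transgenic minus WT 3 of the 9 passed, Esm1 upward and Selp and Vwf downward, against 2.84% of all genes (0.691% upward and 2.15% downward). That comparison uses the same WT arrays as IL4R KO minus WT, in which Esm1 and Vwf were already known to differ, and Esm1 met the filter only through the genotypes where it was high. Nothing is read from this count either. Genotypes did not overlap for 7 of the 9 in IL4R KO minus WT, 3 of 9 in transgenic minus IL4R KO and 8 of 9 in transgenic minus WT, against 51.6%, 41.7% and 61.7% of all genes. The median of the 9 differences was 0.060, 0.028 and 0.16, against 0.024, -0.0047 and 0.032 over all genes.
Without WT pool 1 none of the 9 passed in either comparison with WT, and without WT pool 2 only Esm1 did. Without IL4R KO + SMP8-IL4R pool 2 the count in transgenic minus WT was 1, and without IL4R KO + SMP8-IL4R pool 1 it was 2, Vwf being lost. Over the alternatives, which refitted all or some of the same arrays, Esm1 minus WT ranged from 1.73 to 2.38 in IL4R KO and from 2.12 to 2.45 in transgenic lungs. Vwf ranged from -0.80 to -0.61 in IL4R KO and from -0.68 to -0.58 in transgenic lungs. Without both arrays that held liver transcripts, Esm1 minus WT was 2.38 in IL4R KO and 2.43 in transgenic lungs, and Vwf minus WT -0.64 and -0.66.

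Other genes of the VEGF pathway gave 1 call. Of the 4 other ligands, 1 passed in transgenic minus WT, where 2.84% of all genes did, and 0 in the other comparisons. That was Vegfc, the growth factor of lymphatic vessels, which gave 8.62 and 8.74 in IL4R KO + SMP8-IL4R, 8.18 and 8.24 in IL4R KO, and 7.94 and 7.96 in WT. No 2 genotypes overlapped, with transgenic lungs highest. Vegfc rose by 0.73 against WT (SE 0.07, limma adjusted p = 0.00562), and its 3 probe sets gave 0.73 to 0.91. It did not pass without IL4R KO + SMP8-IL4R pool 2 (0.67, adjusted p = 0.0551), WT pool 1 (0.72, adjusted p = 0.0874) or WT pool 2 (0.74, adjusted p = 0.0779). Its differences of 0.26 in IL4R KO minus WT and 0.47 in transgenic minus IL4R KO did not pass. Of Flt4, Nrp1 and Nrp2, the receptor for VEGF-C and 2 coreceptors, none passed in any comparison. Flt4 came nearest, with 0.36 in IL4R KO minus WT (adjusted p = 0.0526). None of 5 angiopoietin and Tie genes passed in any comparison, and their differences lay between -0.041 and 0.20.

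Among 14 tested genes of tip cells and the VEGF response, 1 rose in IL4R KO minus WT and 0 passed in the comparisons of transgenic lungs. Igfbp3, an insulin-like growth factor binding protein, rose by 0.98 (SE 0.18, adjusted p = 0.0423), and was 0.71 lower in transgenic than in IL4R KO lungs, which did not pass. The Igfbp3 call was lost without any 1 WT or transgenic pool and with the median of its probe sets (0.90). The list's medians were 0.19, -0.036 and 0.17. Over all tested genes, 4.7%, 0.101% and 2.84% passed in the same order of comparisons. Kcne3 and Nid2, also of this list, were too dim to be tested. Kcne3 gave 5.40 and 5.49 in IL4R KO + SMP8-IL4R, 5.40 and 5.84 in IL4R KO, and 6.75 and 6.81 in WT. Nid2 gave 6.96 and 7.04 in IL4R KO + SMP8-IL4R, 7.14 and 7.04 in IL4R KO, and 6.75 and 6.90 in WT. Of 7 endothelial Notch genes 1 passed, in transgenic minus WT, the arterial ephrin Efnb2 (0.42, SE 0.07, adjusted p = 0.035), which lost the call without any 1 WT or transgenic pool, without both arrays with liver transcripts and in the fit with the replicate number as a block (adjusted p = 0.0667). Its 4 probe sets gave 0.15 to 0.42. Of 10 hypoxia response genes 1 passed in every comparison, the prolyl hydroxylase Egln3, at -1.59 in IL4R KO minus WT, 1.13 in transgenic minus IL4R KO and -0.46 in transgenic minus WT (limma adjusted p of 0.000327, 0.0136 and 0.0253 in that order). Its pools gave 8.33 and 8.28 in IL4R KO + SMP8-IL4R, 7.22 and 7.12 in IL4R KO, and 8.77 and 8.75 in WT, with no overlap between genotypes. The Egln3 calls in both comparisons of transgenic lungs were lost without either transgenic pool or either WT pool, and that against WT also with the median of its probe sets (-0.34). None of the 7 NF-kB response genes passed. Tnfaip3, an inhibitor of that pathway, came nearest to passing in IL4R KO minus WT (-0.40, adjusted p = 0.0824) and Traf1 in transgenic minus WT (0.44, adjusted p = 0.0757).

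Leukocyte adhesion partners and clotting genes gave no call. None of 8 tested adhesion genes passed in any comparison, and Itgb2, the shared chain of leukocyte integrins, was lowest, at -0.51 in IL4R KO minus WT (adjusted p = 0.0866) and -0.54 in transgenic minus WT (adjusted p = 0.0985). None of 5 tested genes of haemostasis and Weibel-Palade bodies passed, and their differences lay between -0.17 and 0.40. None of the 23 pan-endothelial genes passed in any comparison. Their medians were 0.10, 0.030 and 0.13, beside 0.024, -0.0047 and 0.032 over all genes, and their differences ran from -0.34 to 0.30 in IL4R KO minus WT and from -0.26 to 0.55 in transgenic minus WT. Sox17, an arterial transcription factor, stood apart in that list at 0.73 in transgenic minus IL4R KO (adjusted p = 0.138) and 0.55 in transgenic minus WT (adjusted p = 0.0522), neither of which passed.

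Genes that mark a vessel type gave few calls: 1 of 6 arterial genes rose in IL4R KO minus WT and 2 in transgenic minus WT. Over all tested genes 1.92% and 0.691% rose in those comparisons. The arterial medians were 0.20 in IL4R KO minus WT, 0.18 in transgenic minus IL4R KO and 0.38 in transgenic minus WT. Over all tested genes the medians were 0.024, -0.0047 and 0.032. In transgenic minus WT all 6 arterial genes lay above WT without overlap, where genotypes did not overlap for 61.7% of all genes. Bmx, a kinase of arterial endothelium, gave 8.30 and 8.14 in IL4R KO + SMP8-IL4R, 8.08 and 8.08 in IL4R KO, and 7.46 and 7.45 in WT. Both knockout genotypes lay above WT. It rose by 0.63 in IL4R KO (adjusted p = 0.0111) and by 0.77 in transgenic lungs (adjusted p = 0.00665), and neither call held without WT pool 1 or WT pool 2, nor the first without both arrays that held liver transcripts (0.62, adjusted p = 0.0591). The other arterial gene to rise in transgenic minus WT was Efnb2, given above. Of 5 venous genes, the serine protease Prss23 rose by 0.39 in transgenic minus WT (adjusted p = 0.0345), a call lost without any 1 WT or transgenic pool and in several other alternatives, the block among them (adjusted p = 0.0655). Of 5 lymphatic genes, Reln rose by 0.41 in IL4R KO minus WT (adjusted p = 0.0493), with another probe set at -0.20, and lost the call without any 1 pool other than IL4R KO pool 2 and in several other alternatives, the block among them (adjusted p = 0.0824). No gene of the aerocyte list (6 tested) or the general capillary list (5 tested) passed in any comparison.

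**Figure D3:**
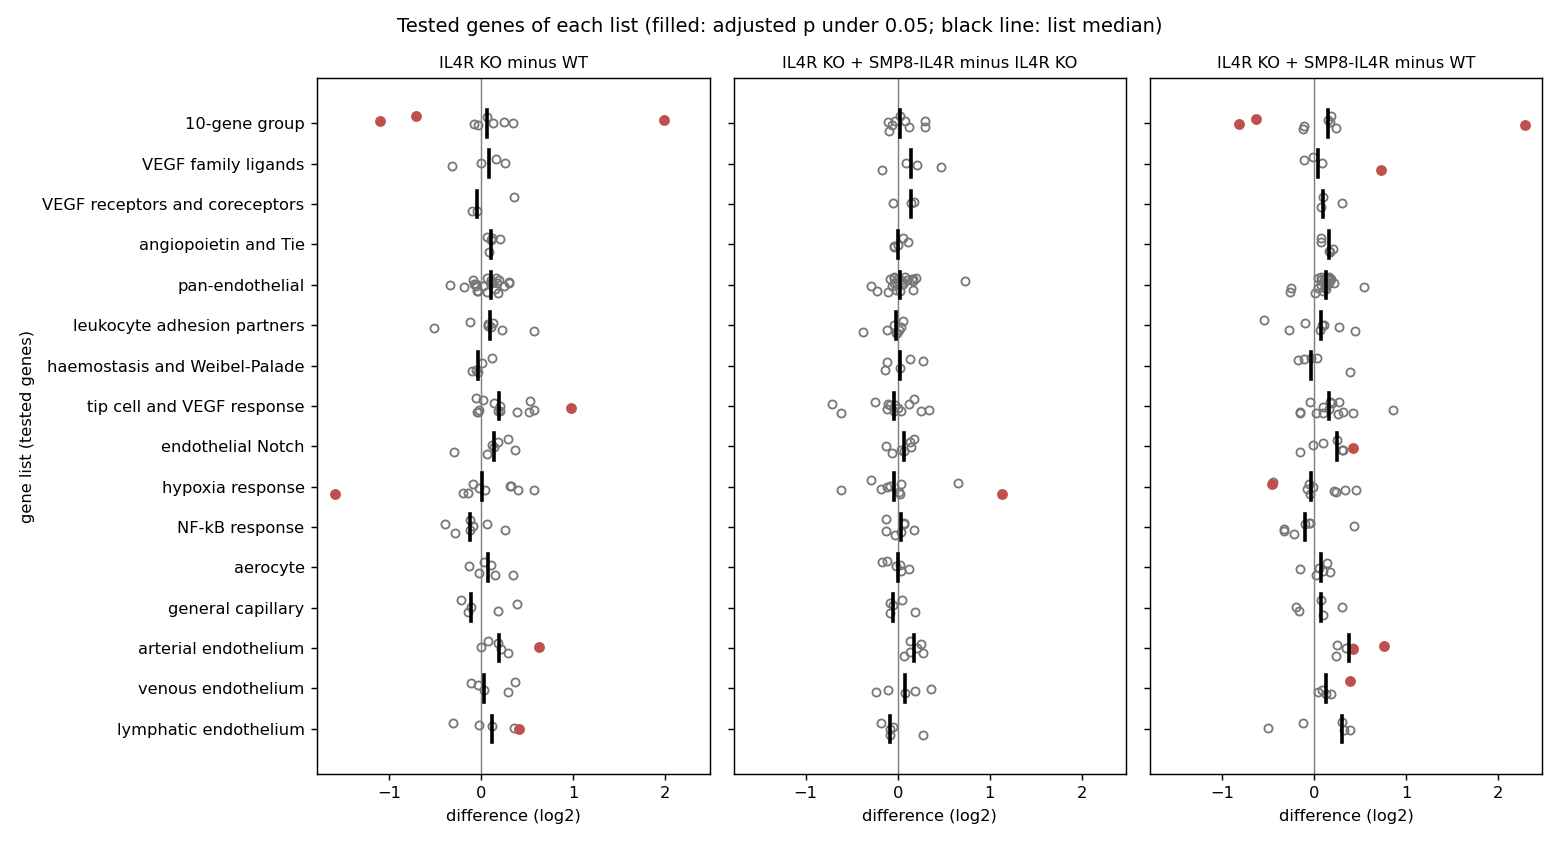
Differences on the log2 scale for the tested genes of the 10-gene group and of each endothelial or pathway list in the 3 comparisons; filled points passed at an adjusted p under 0.05 and black lines are list medians. Esm1 is at 1.99 and 2.29 in the comparisons with WT, where the pan-endothelial genes lie between -0.34 and 0.55.

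Other cells of the lung can hold some of these transcripts. Of the 5 tested platelet and megakaryocyte genes, of cells that store Vwf and Selp, none passed. Their medians were 0.36 in IL4R KO minus WT and 0.57 in transgenic minus WT. The mean of the 6 platelet genes on the array was 9.11 and 8.72 in IL4R KO + SMP8-IL4R, 8.72 and 8.63 in IL4R KO, and 8.18 and 8.60 in WT pools, and none of them was below the lower quartile of all values on every array. Alveolar type 2 genes, of cells that make Vegfa, had medians of 0.28, -0.014 and 0.23 (5 tested; 1 rose in each comparison with WT), and type 1 genes of 0.097, -0.0068 and 0.059 (6 tested; 1 rose in each comparison with WT).
Of 6 smooth muscle genes, 4 fell in IL4R KO minus WT (median -0.45), 2 rose in transgenic minus IL4R KO (median 0.58) and 1 rose in transgenic minus WT (median 0.18). Of 4 adipocyte genes, 4 rose in IL4R KO minus WT (median 1.61), 2 fell in transgenic minus IL4R KO (median -0.99), and 2 rose in transgenic minus WT (median 0.59). Both WT pools of Cidec (6.71 and 6.71) and of Ucp1 (6.30 and 6.59) lay below 7.10, the median of all values. These genes met the filter on dim genes through the other genotypes, and nothing is read from their calls against WT. Of 7 cardiac muscle genes, 5 rose in IL4R KO minus WT (median 0.80) and 0 passed in transgenic minus IL4R KO (median -0.37). In transgenic minus WT 1 rose and 1 fell (median 0.30). Of 5 macrophage genes, 2 fell in each comparison with WT (medians -0.57 and -0.57). Over all tested genes, 1.92% rose and 2.77% fell in IL4R KO minus WT, and 0.691% and 2.15% in transgenic minus WT. In transgenic minus IL4R KO 0.101% of all genes passed. The part of these other cell types in the values of the 10 genes was not tested.

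To place Esm1 and Vwf among all genes, each gene's values were centred on its mean and compared over the 6 arrays by the root mean square difference. Nearest to Esm1 was the immunoglobulin gene Igkv6-14 (0.27 log2 units), with 8.02 and 8.36 in IL4R KO + SMP8-IL4R, 7.92 and 7.997 in IL4R KO, and 6.17 and 6.27 in WT. The cytokine gene Il18 (0.32), the Fc receptor gene Fcgr1 (0.44), the paraoxonase gene Pon1 (0.44) and the immunoglobulin joining chain Jchain (0.48) followed. Both WT values of Igkv6-14 and of Fcgr1 (6.82 and 6.92) lay below 7.10, the median of all values. Like Esm1, these genes met the filter on dim genes through the other genotypes. Nearest to Vwf were the sterol synthesis genes Msmo1 (0.046) and Sqle (0.063), Aldh1a7 (0.063), the signalling ligand Shh (0.064) and the cytokine gene Tnfsf13b (0.066). The spread of Vwf about its own mean was 0.32 and that of Esm1 1.03, the scale against which these distances are to be read.

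**Figure D4:**
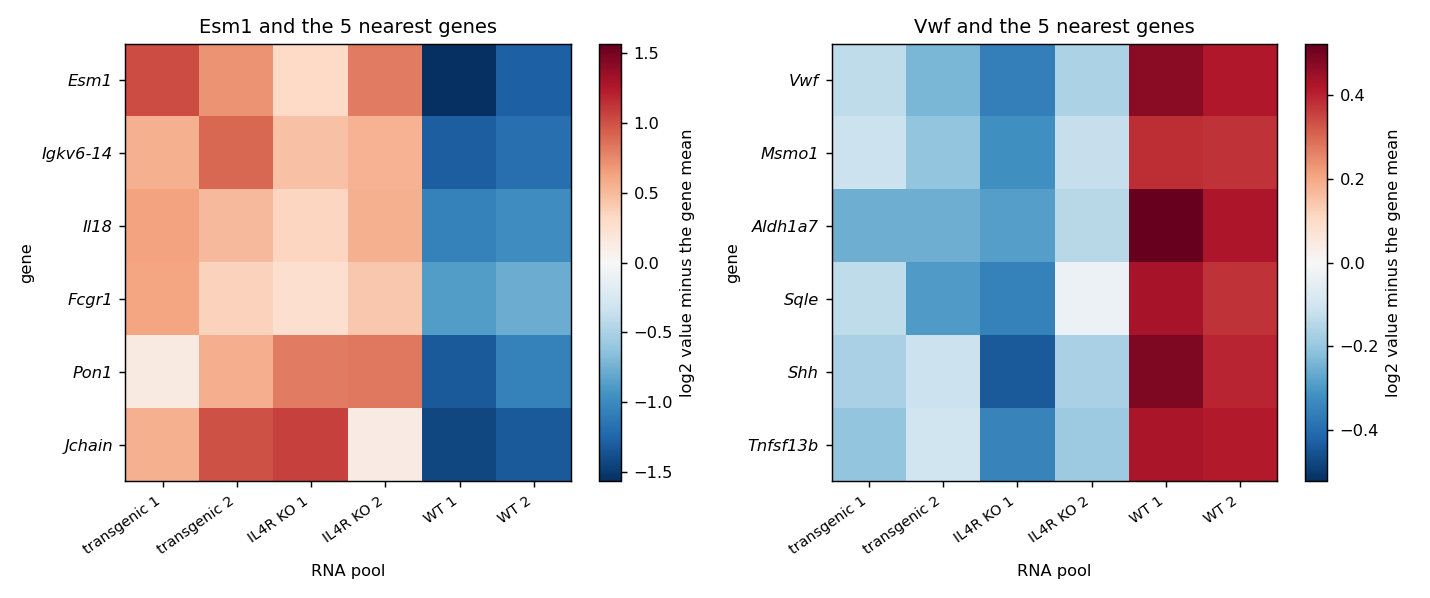
Log2 values minus the gene's mean in the 6 RNA pools for Esm1 and Vwf, each above its 5 nearest genes, with red above and blue below the mean; the colour scale differs between panels. WT pools are lowest for Esm1 and highest for Vwf. The nearest genes were picked for likeness over these same 6 pools, so their WT pools lie on the same side by choice.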

How the data were processed

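The deposited log2 intensity values were made by the authors with RMA, per the submitters' processing notes, in a version not given in the sources used here. A total of 45101 probe sets was read, and 64 array controls among them were left out. By GEO's platform annotation 34945 probe sets had 1 gene, 932 had several and 9160 were unnamed. For each gene the probe set of highest mean was used. A gene was tested where that probe set exceeded 7.10, the overall median, on 2 or more arrays, which held for 11861 genes. Group means were compared in 1 fit of all 6 arrays with limma 3.58.1 in R 4.3.3, with Benjamini-Hochberg adjustment over all genes tested and a threshold of 0.05 (3 residual and 2.86 prior degrees of freedom). All adjusted p-values come from limma. These p-values reflect only how pools of 1 genotype differ, and the number of arrays limits the precision. The pipeline was tested on simulated data. Members and gene lists were chosen with earlier results of these data known. Named genes were the members, up to 4 passing genes of each list, or at most 2 nearest to passing, and the 5 genes nearest to Esm1 and to Vwf. Kcne3 and Nid2, untested genes of the tip cell list, were named after seeing the data. Markers of other cell types are given as counts. Alternatives covered the filter, probe set choice, variance model, scaling, the replicate number as a block, arrays with liver transcripts, and each array in turn. Leaving out 1 array left its genotype with 1 array and the fit with fewer residual degrees of freedom. A call can then be lost while the difference hardly moves. Those for genes outside the 10 were added after seeing the data.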

Additional observations from a re-analysis of the deposited data

How the results depend on the processing

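The values come with no measure of signal over background, so how far dim genes such as Sele can be read is not known. The count of genes passing in IL4R KO minus WT was 557, and 110 to 1519 when 1 pool was left out; in transgenic minus WT it was 337, and 77 to 910; in transgenic minus IL4R KO it was 12, and 0 to 177. That last count was 5 with no filter, 7 with the median of probe sets, 7 over all probe sets and 19 with a robust intensity trend. With 1 pool left out, 0 to 4 of the 9 genes tested passed in IL4R KO minus WT and 0 to 3 in transgenic minus WT. With no filter, 4 of 10 passed in IL4R KO minus WT, Sele being added, and with a stricter filter 2 of 8, since Esm1 was no longer tested. With the median of probe sets Selp no longer passed there (-1.09). In a fit with the replicate number as a block (replicate block), 3, 0 and 3 of the 9 genes tested and 482, 10 and 276 of all genes passed; the deviations of same-numbered pools correlated at 0.12, -0.087 and -0.51, so the numbers were not taken as pairs. Of the genes named, the block ended the calls of Efnb2 (0.42), Prss23 (0.39) and Reln (0.41). Some differences that did not pass changed sign. In IL4R KO minus WT, Pecam1 ranged from -0.071 to 0.0070 and Vcam1 from -0.22 to 0.056 with 1 pool left out (the positive values without IL4R KO pool 1), and Vcam1 was 0.044 without both arrays with liver transcripts. In transgenic minus IL4R KO, the ranges with 1 pool left out were -0.022 to 0.17 for Vwf (negative without IL4R KO pool 1), -0.32 to 0.12 for Kdr and -0.17 to 0.10 for Vcam1 (both positive without IL4R KO pool 2), and -0.15 to 0.022 for Flt1 (positive without transgenic pool 1, where Vcam1 was 0.028). Vwf was -0.022 without both arrays with liver transcripts, and the median of probe sets gave -0.061 for Vegfa and -0.11 for Cdh5. The cause was not tested. Centring each array on its median turned no direction among the 9 genes tested, and gave 620 genes in IL4R KO minus WT (214 higher) and 397 in transgenic minus WT (88 higher).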
